A study of Mus musculus with 6 samples.

Results

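Immediate early genes and heat shock genes are described here in the progenitors of innate lymphoid cells (ILCPs), sorted from mouse bone marrow. The members were taken by symbol from the table of estimated counts and comprised 31 of its 16383 genes. Of these, 21 were immediate early genes and 10 were heat shock genes. The mice were Rag1-cre;ET-2 animals on a C57BL/6 background, in which Rag1 drives Cre recombinase. As background, ET-2 joins the activating part of E47, an E protein, to the basic helix-loop-helix region of TAL1, and GFP marks the cells in which Cre has switched it on. ILCPs were gated as lineage-negative cells with IL7Rα, α4β7 and CD90 but without Flt3 and CD25, and were sorted into a GFP+ and a GFP- fraction of the same marrow. There were 3 libraries of each fraction, and each replicate was a pool of 4 to 5 mice that gave both fractions. GFP- cells therefore came from mice of the same genotype as GFP+ cells. No group analysed here had Cre without ET-2, so the effect of ET-2 and a history of Rag1-driven Cre cannot be told apart.

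Immediate early genes are transcribed within minutes of a stimulus without new protein synthesis. Many encode transcription factors, among them the FOS and JUN proteins that pair to form AP-1, and others encode phosphatases or inhibitors that shut the same signals off. In lymphocytes these genes respond to antigen receptor and cytokine signals, and they are also known to respond to the handling of cells. Heat shock genes encode chaperones that fold proteins. Some are expressed in all cells and others are switched on by heat shock factor 1 (HSF1) when unfolded proteins accumulate.

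The libraries held 10432461 to 19038554 estimated counts. Il7r, which encodes the IL7Rα chain used in the sort, stood at 1255 to 2670.5 CPM (counts per 1000000 counts of the library, adjusted between libraries by the trimmed mean of M values) in all 6 libraries. The 11 genes listed for the sort and for ILCP identity summed to between 8330 and 16787 CPM, and 2 of them were at 0 in GFP+ replicate 3. This list includes Flt3 and Il2ra, which encodes CD25, so it mixes genes sorted for with genes sorted against. Neither the sum nor the genes at 0 therefore measure how pure a library was. GFP+ replicate 3 stood apart. Its immunoglobulin genes summed to 36819 CPM and its ribosomal protein genes to 106072 CPM, against at most 1536 and 26952 CPM in any other library. Mitochondrially encoded genes summed to 64147, 52377 and 28029 CPM in GFP+ replicate 2, GFP- replicate 3 and GFP+ replicate 3, and to 5770.0 to 8491 CPM in the other libraries. For the members, results that rest on 1 of these libraries are given with and without it. For the other gene lists, fold changes are given with all 6 libraries only.

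No member differed between GFP+ and GFP- ILCPs beyond the spread between libraries. edgeR's quasi-likelihood test with Benjamini-Hochberg adjustment, run over the 12199 genes that passed its filter on low counts, called 0 of 21 immediate early genes and 0 of 10 heat shock genes. All 31 members had passed that filter. The share of genes called was 0% in each direction, so no call was made for any gene, and 3.23% of genes had an unadjusted p under 0.05, 1.77% higher and 1.46% lower in GFP+ cells. No member had an unadjusted p under 0.05 by edgeR or DESeq2, against 5.57% of genes by DESeq2 and 1.71% with the replicate number as a block in edgeR, and DESeq2, limma-voom with sample weights and the block called 0 members. DESeq2 called 0.0916% of 16383 genes higher and 0.275% lower. The authors' deposited table called 0.598% of genes and 0 members, and its smallest adjusted p for a member was 0.625, that of Junb. For each of the 31 members the GFP+ and GFP- values overlapped. Over all genes tested, GFP+ values lay wholly above GFP- values for 3.17% and wholly below for 6.01%.

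Many immediate early genes ranged widely between libraries of the same kind. The promoters of 3 AP-1 genes whose levels were lowest in GFP+ replicate 2 are shown first, read 5′ to 3′ from RefSeq on GRCm38.p6, from 250 bases before the annotated start to 50 bases after it. Capitals mark the core of the cAMP response element (TGACGT), the 8-letter AP-1 or cAMP response element (TGACNTCA), the E box CAGCTG, which E proteins are known to bind, and the TATA box letters (TATAAA). Relative to the annotated start, TATAAA lies at −33 to −28 in Fos. In Junb it lies at 1 to 6 from the RefSeq start. GENCODE places the start of Junb at 84978718, further downstream on the minus strand, and TATAAA lies before that start. Its place relative to the start of Junb therefore depends on the annotation.
Fos, chr12:85473640-85473939, plus strand: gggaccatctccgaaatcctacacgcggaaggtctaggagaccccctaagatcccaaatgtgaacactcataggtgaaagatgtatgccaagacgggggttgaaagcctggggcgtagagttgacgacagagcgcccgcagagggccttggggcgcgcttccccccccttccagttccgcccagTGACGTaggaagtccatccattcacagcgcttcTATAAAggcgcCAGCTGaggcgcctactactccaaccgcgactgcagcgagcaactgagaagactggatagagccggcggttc
Jun, chr4:95052173-95052472, minus strand: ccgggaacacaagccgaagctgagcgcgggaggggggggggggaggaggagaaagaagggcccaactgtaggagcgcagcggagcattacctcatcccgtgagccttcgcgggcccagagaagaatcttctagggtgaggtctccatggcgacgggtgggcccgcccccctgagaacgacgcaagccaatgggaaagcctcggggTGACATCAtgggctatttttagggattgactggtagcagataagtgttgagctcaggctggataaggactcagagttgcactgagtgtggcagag
Junb, chr8:84978699-84978998, minus strand: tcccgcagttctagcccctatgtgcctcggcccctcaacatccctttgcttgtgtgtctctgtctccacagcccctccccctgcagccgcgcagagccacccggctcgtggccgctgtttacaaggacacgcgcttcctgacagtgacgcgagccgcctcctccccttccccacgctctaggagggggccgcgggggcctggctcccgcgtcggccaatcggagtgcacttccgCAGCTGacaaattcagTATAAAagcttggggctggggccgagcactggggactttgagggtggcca

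Windows were at hand for 26 members, 19 of them immediate early genes and 7 heat shock genes. Egr1, Ier2, Hsp90aa1, Hsp90ab1 and Hspa8 had no window. Several genes had more than 1 window, and a gene was counted when any window held the letters on either strand. TGACGT was present for 6 of 19 immediate early genes (Fos, Egr2, Atf3, Dusp1, Nr4a3 and Btg2) and for 8.37% of all 27025 genes with a window. The longer TGACNTCA, which includes the full cAMP response element, was present for Jun, Dusp1, Btg2 and Klf6, 4 of 19 against 10% of all genes. The kappa B site, which NF-κB binds, was present for 6 of 19 (Fos, Fosb, Fosl2, Ier3, Nr4a1 and Nfkbia) against 5.14% of all genes. The E box CAGCTG was present for 5 of 19 (Fos, Junb, Jund, Ier3 and Klf4) against 18.3%, and the E box CAGGTG for 1, Fosb, against 22.6%. The CArG box, the site of serum response factor, was found in the window of Egr2 and of no other immediate early gene, against 1.81% of all genes. The AP-1 site TGANTCA was present for 0 of 19 against 8.97%, the full cAMP response element TGACGTCA for Dusp1 and Btg2 against 2.03%, and the TATA box TATAAA for 4 of 19 against 15.7%. CCAAT, the CCAAT box, was present for 8 of 19 immediate early and 6 of 7 heat shock genes against 41.1%, and the EGR site for 0 of 19 and 1 of 7 against 0.707%. TGACGTCA contains TGACGT and also fits TGACNTCA, so these counts overlap. The matches describe letters in short windows and not bound sites.

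No FOS gene passed the test between the fractions, and Fos itself was nearly absent from 1 GFP+ library. Values are given for replicates 1, 2 and 3 in that order. Fos, on chromosome 12 at 85473890 to 85477273 (GRCm38, plus strand), reached 193, 0.745 and 291 CPM across GFP+ libraries, while the GFP- libraries gave 143, 102 and 89.4 CPM. In estimated counts this was 9 in GFP+ replicate 2 against 1153 to 3058 in the other 5 libraries, whose median CPM was 193-fold higher. GFP+ replicates 1 and 3 were thus the highest of the 6 libraries and GFP+ replicate 2 the lowest. In bulk samples, fewer cells with a high level and less RNA of these genes per cell cannot be told apart. The log2 fold change of Fos, GFP+ over GFP-, was 0.54 ± 1.20 (SE; edgeR adjusted p = 0.998), and it was 1.11 without GFP+ replicate 2 and −0.21 without GFP+ replicate 3. Fosb, a close relative of Fos, had 427, 36.9 and 120.2 CPM in its GFP+ libraries and 259, 154 and 187 CPM in its GFP- libraries. It was again lowest in GFP+ replicate 2, and the ratio of Fosb to Fos CPM went from 0.413 in GFP+ replicate 3 to 49.6 in GFP+ replicate 2. Fosl2, a further FOS relative, measured 66.0, 5.38 and 21.1 CPM across GFP+ and 22.7, 3.57 and 6.28 CPM across GFP- libraries. Fosl2 was higher in GFP+ cells in 3 of 3 pairs, with a log2 fold change of 1.51 ± 1.10 (SE; edgeR adjusted p = 0.998), and both libraries of replicate 2 were its lowest. The log2 fold change of Fosl2 was 0.35 without GFP+ replicate 1 and 2.67 without GFP- replicate 1.

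Among the JUN family, Junb had the largest fold change of the immediate early genes, and it came from 1 library. Junb, on chromosome 8 at 84974484 to 84978718 (minus strand), reached 70.5, 4.05 and 755 CPM across GFP+ libraries, against 79.4, 45.5 and 16.3 CPM across GFP- libraries. GFP+ replicate 3 was the highest library and GFP+ replicate 2 the lowest, with all GFP- values between them. The log2 fold change of Junb was 2.55 ± 1.34 (SE; edgeR adjusted p = 0.998). Without GFP+ replicate 3 it was −0.34, and with the replicate number as a block it was 0.15. The annotated gene overlaps Prdx2 on the opposite strand but shares 0% of its 31-base words with other genes' transcripts. Jun was at 327, 137 and 609 CPM in the GFP+ fraction, while the GFP- fraction gave 278, 351 and 318 CPM, so that the GFP- libraries lay close together and the GFP+ libraries lay on either side of them. Jund had 46.5, 93.1 and 116 CPM in its GFP+ libraries and 57.8, 34.3 and 65.0 CPM in its GFP- libraries. It was the 1 AP-1 gene whose level in GFP+ replicate 2 lay above all GFP- libraries. Of its 31-base words 50.1% also lie in Gm11175, a gene on the opposite strand of the same bases, and the sources used here do not say whether counting used strand, so its counts are uncertain.

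**Figure D1:**
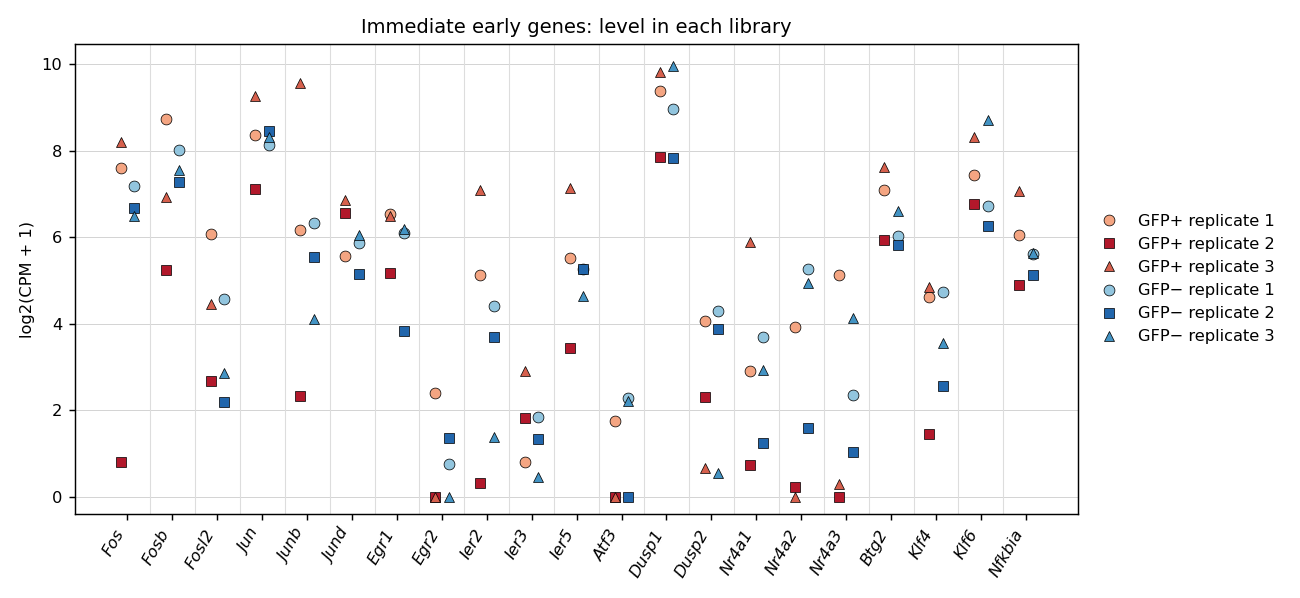
Level of each of the 21 immediate early genes as log2(CPM + 1) in each of the 6 libraries, GFP+ in red shades on the left and GFP- in blue shades on the right of each column, with 1 symbol per replicate. Fos lies at 0.745 CPM in GFP+ replicate 2 and at 89.4 to 291 CPM elsewhere, and the groups overlap for every gene.

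The EGR factors and Atf3 did not pass the test either. Egr1, a zinc finger factor downstream of ERK signalling, measured 91.3, 34.9 and 88.4 CPM across GFP+ and 67.7, 13.3 and 72.5 CPM across GFP- libraries. Egr1 was higher in GFP+ cells in 3 of 3 pairs (log2 fold change 0.48 ± 0.74, SE; edgeR adjusted p = 0.998), and its lower values were the 2 libraries of replicate 2. Without GFP- replicate 2 the log2 fold change of Egr1 was 0.07. Over all genes tested, 8.51% were higher in 3 of 3 pairs and 14.9% were lower. Egr2, which restrains T cell activation, had 68 estimated counts in GFP+ replicate 1, 10 and 34 in GFP- replicates 1 and 2, and 0 in the other 3 libraries. Atf3, a stress-induced factor, had 38 estimated counts in GFP+ replicate 1, 56 and 47 in GFP- replicates 1 and 3, and 0 elsewhere. At such counts a difference between the groups was not detectable.

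The NR4A nuclear receptors, which are known to report antigen receptor signals in T cells, had unlike patterns over the libraries. Nr4a1 was at 6.51, 0.662 and 58.7 CPM in the GFP+ fraction, while the GFP- fraction gave 11.9, 1.37 and 6.67 CPM, and its log2 fold change of 1.72 was −0.89 without GFP+ replicate 3. Nr4a2 had 14.2, 0.165 and 0 CPM in its GFP+ libraries and 37.6, 2.02 and 29.8 CPM in its GFP- libraries. It was lower in GFP+ cells in 3 of 3 pairs, with a log2 fold change of −2.27 ± 1.84 (SE; edgeR adjusted p = 0.998), yet GFP+ replicate 1 exceeded GFP- replicate 2. The log2 fold change of Nr4a2 was −7.82 without GFP+ replicate 1, when GFP+ held 2 and 0 estimated counts, −1.47 without replicate 3 in either fraction and −4.09 with the replicate number as a block. Nr4a3 measured 33.9, 0 and 0.237 CPM across GFP+ and 4.12, 1.05 and 16.7 CPM across GFP- libraries. GFP+ replicate 3 thus held the highest Nr4a1 level of all libraries while its Nr4a2 was at 0 and its Nr4a3 at 2 estimated counts. The Krüppel-like factor Klf4 was at 23.7, 1.74 and 27.9 CPM in the GFP+ fraction, while the GFP- fraction gave 25.6, 4.90 and 10.9 CPM. Klf6 had 172, 108 and 316 CPM in its GFP+ libraries and 104, 75.4 and 420.4 CPM in its GFP- libraries. For both factors the library of replicate 2 was the lowest of its fraction.

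Among genes that damp the same signals, Dusp1, Nfkbia and Btg2 stayed within a narrower range than Fos or Junb. Dusp1, a phosphatase that switches off MAP kinases, measured 665, 232 and 904 CPM across GFP+ and 498, 226 and 999.6 CPM across GFP- libraries, with a log2 fold change of 0.06 ± 0.68 (SE; edgeR adjusted p = 0.999). Here the libraries ordered by replicate rather than by fraction, with replicate 3 high and replicate 2 low in each fraction. Dusp2, a relative found in lymphocytes, was at 15.7, 3.97 and 0.593 CPM in the GFP+ fraction, while the GFP- fraction gave 18.5, 13.8 and 0.465 CPM, so that replicate 3 was the lowest in each fraction. Nfkbia, which encodes the NF-κB inhibitor IκBα, had 65.4, 28.9 and 133 CPM in its GFP+ libraries and 48.3, 33.9 and 48.9 CPM in its GFP- libraries. Btg2, an inhibitor of proliferation, measured 135, 59.9 and 196 CPM across GFP+ and 64.1, 55.4 and 96.2 CPM across GFP- libraries. Btg2 was higher in GFP+ cells in 3 of 3 pairs (log2 fold change 0.86 ± 0.58, SE; edgeR adjusted p = 0.998), by 0.11 to 1.07 on the log2(CPM + 1) scale. The log2 fold change of Btg2 was 0.44 without GFP+ replicate 3. The immediate early response genes Ier2, Ier3 and Ier5 ranged more widely. Ier2 was at 33.8, 0.248 and 136 CPM in the GFP+ fraction, while the GFP- fraction gave 20.3, 12.0 and 1.63 CPM, with 3 estimated counts in GFP+ replicate 2. Its log2 fold change of 2.32 ± 1.50 (SE; edgeR adjusted p = 0.998) was 0.58 without GFP+ replicate 3. Ier5 stood at 9.93 CPM in GFP+ replicate 2 and at 23.9 to 140.2 CPM in the others, and Ier3 did not exceed 6.52 CPM in any library.

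The libraries of replicate 2 were the lowest for most of the immediate early genes. Of 21 such genes, 10 were lowest in GFP+ replicate 2 and 6 in GFP- replicate 2, together 16 of 21 against 27.4% of all genes tested. Of the 13 genes with a mean CPM of at least 20, a replicate 2 library was the lowest for all 13, against 16.4% to 31.6% of all genes in the bins of level from 20 CPM up. Below 20 CPM a replicate 2 library was the lowest for 3 of 8 immediate early genes, against 25.8% of all genes. A replicate 2 library was the highest for 0 of 21 immediate early genes, against 34% of all genes. GFP+ replicate 2 lay at least 4-fold below the median of the other 5 libraries for 8 of 21 immediate early genes, against 10.4% of all genes. Here 4-fold means a difference of 2 on the log2(CPM + 1) scale. By mean level these were 4 of 8 below 20 CPM, 1 of 6 from 20 to 100 CPM and 3 of 6 from 100 to 500 CPM. The shares of all genes in those bins were 15.3%, 8.29% and 2.30%. The 8 genes were Fos, Fosb, Junb, Ier2, Nr4a1, Nr4a2, Nr4a3 and Klf4. The median difference was −1.77 for the immediate early genes, −0.28 for the heat shock genes and −0.15 for all genes. Of the 10 heat shock genes 0 lay 4-fold below. In the bins that held them, the shares of all genes were 8.29% (4 heat shock genes), 2.30% (2 genes) and 0.943% (4 genes). For genes of this level 0 of 10 is thus near the share of all genes. These counts were looked for after the values had been seen. Summed over the 21 genes, the level was 2439, 759 and 3920.0 CPM across GFP+ libraries and 1784, 1170 and 2414 CPM across GFP- libraries. Per kilobase of the longest coding transcript, the mean level over the 6 libraries was 295 CPM for Dusp1, 106 CPM for Jun, 64.8 CPM for Fos and 0.369 CPM for Egr2. On the same scale the mean of Junb was 89.4 CPM, with 417 CPM in GFP+ replicate 3 and 2.24 to 43.9 CPM in the other 5 libraries.

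**Figure D2:**
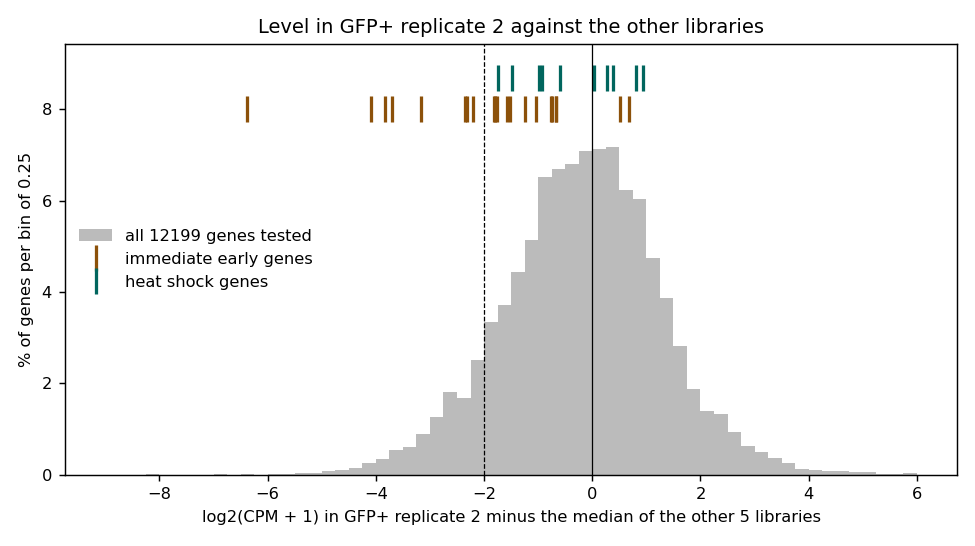
Difference in log2(CPM + 1) between GFP+ replicate 2 and the median of the other 5 libraries, for all 12199 genes tested as a grey histogram in % of genes and for each member as a tick (immediate early in brown, heat shock in green). The dashed line marks a difference of −2, below which 8 of 21 immediate early genes and 0 of 10 heat shock genes lie.

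GFP+ replicate 2 did not stand out by depth, at 15042354 estimated counts, while its genes above 0 numbered 12576 against 14758 in GFP+ replicate 1 and 11240 in GFP+ replicate 3. Its 7 myeloid marker genes in the table summed to 189 CPM with 3 at 0, against 315 to 1628 CPM elsewhere, with Lyz2 and Mpo at 24.7 and 0.331 CPM. Its 8 erythroid marker genes summed to 26.4 CPM with 7 at 0, against 14.9 to 252 CPM elsewhere. Its 10 B and plasma cell marker genes summed to 597 CPM with 3 at 0, against 440 to 24205 CPM elsewhere. Its mast cell and basophil marker genes summed to 1470 CPM, against 572 to 1290.1 CPM elsewhere, with 3 of 7 at 0, Mcpt8 among them. Its T and NK cell marker genes summed to 185 CPM with 2 of 13 at 0, against 56.1 to 372 CPM elsewhere, and its 7 marker genes of mature ILC2 to 1927 CPM with 1 at 0, against 1151 to 3828 CPM. The part that these other cells or the mitochondrially encoded RNA have in the low values was not tested.

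The direction of the immediate early genes as a group rested on GFP+ replicate 3. Of 21 genes, 16 had a log2 fold change above 0 and 5 below, with a median of 0.65, beside 49% above 0 and a median of −0.03 over all genes tested. Without GFP+ replicate 3, 10 of 21 were above 0 and the median was −0.12. Without GFP+ replicate 2, 18 of 21 were above 0 and the median was 1.11. The median difference within pairs 1, 2 and 3 was 0.42, −1.04 and 0.94 on the log2(CPM + 1) scale. GFP+ replicate 3 was the highest library for 11 of 21 immediate early genes, against 23.1% of all genes, and this is also the library with high immunoglobulin and ribosomal protein RNA. Its 10 B and plasma cell marker genes summed to 24205 CPM with 3 at 0, against at most 1551 CPM elsewhere, its myeloid marker genes to 1628 CPM with 1 at 0, and its T and NK cell marker genes to 56.1 CPM with 9 of 13 at 0. The part of such cells in the higher values was not tested.

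**Figure D3:**
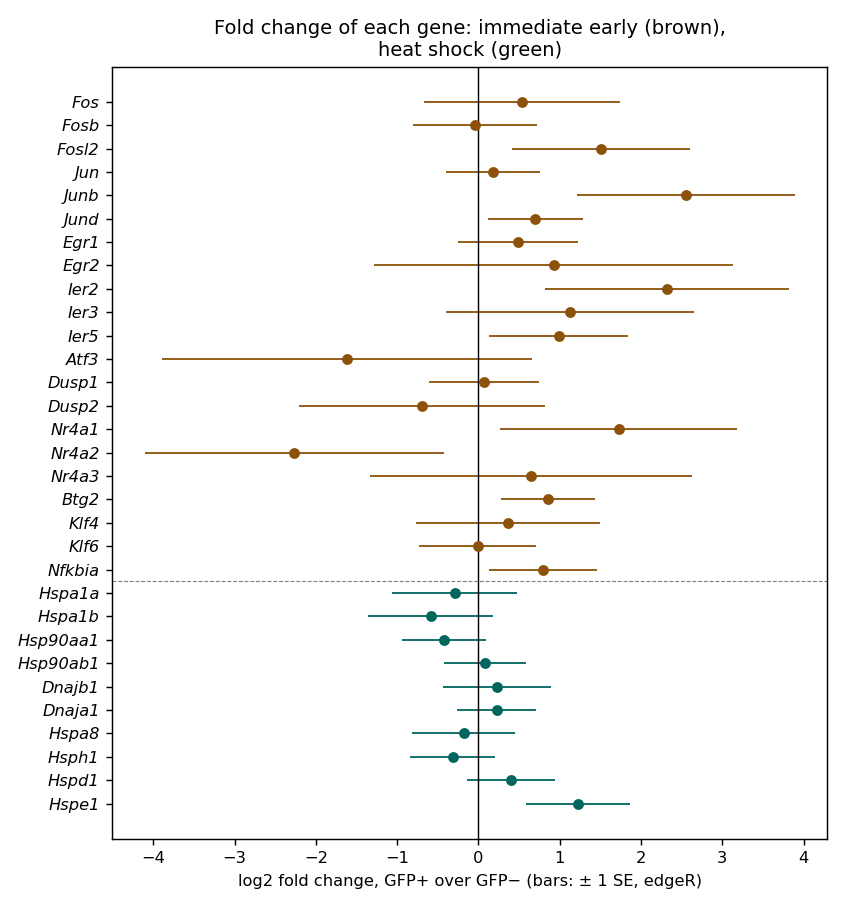
Log2 fold change of each member, GFP+ over GFP-, with bars of ± 1 SE from edgeR, immediate early genes in brown above the dashed line and heat shock genes in green below it. The largest value is that of Junb, 2.55 ± 1.34, and every member has an adjusted p of 0.998 or 0.999.

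The highest library exceeded the lowest by more than 10-fold for 14 of 21 immediate early genes, 4 of which were at 0 in at least 1 library. It did so for 0 of 10 heat shock genes and for 48.4% of all genes. The 48.4% covers genes of all levels and is not the share at the level of the heat shock genes, which is given below. The heat shock genes ranged 1.83-fold to 8.12-fold. Their median biological coefficient of variation, the spread between libraries that edgeR estimates per gene, was 0.553, against 0.96 for the immediate early genes and 0.832 for all genes tested. Heat shock genes also had higher levels, with a median of mean CPM of 136 against 49.0 for the immediate early genes and 23.3 for all genes, and the coefficient fell with level over all genes. It had a median of 1.17 for genes with a mean below 20 CPM, 0.686 from 20 to 100 CPM and 0.544 from 100 to 500 CPM. In these bins the medians of the immediate early genes were 1.30 (8 genes), 0.708 (6 genes) and 0.663 (6 genes), and those of the heat shock genes in the latter 2 bins were 0.661 (4 genes) and 0.526 (2 genes). Above 500 CPM the median was 0.545 for all genes, 0.5005 for 4 heat shock genes and 0.615 for Dusp1, the 1 immediate early gene there. The medians of the immediate early genes thus lay above those of all genes in each of the 4 bins and those of the heat shock genes below them in each of the 3 bins that held any, without a test of either. Fos and Junb, at 0.971 and 1.01, and Ier2 and Fosl2, at 1.13 and 0.917, lay farther above the median of their bin than the other immediate early genes with a mean of at least 20 CPM. By level, the highest library exceeded the lowest by over 10-fold for 76.9% of all genes below 20 CPM and 29.1% from 20 to 100 CPM. The share was 12.3% from 100 to 500 CPM and 13.2% above 500 CPM. For the immediate early genes the counts in these bins were 8 of 8, 3 of 6, 3 of 6 and 0 of 1. For the heat shock genes they were 0 of 4, 0 of 2 and 0 of 4 in the bins from 20 CPM up. Of the heat shock genes 5 had a log2 fold change above 0 and 5 below, with a median of −0.05, which was 0.28 without GFP+ replicate 1 and −0.27 without GFP+ replicate 3. Summed over the 10 genes, the level was 4405, 7545 and 8629 CPM across GFP+ libraries and 5711, 6098 and 9435 CPM across GFP- libraries.

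**Figure D4:**
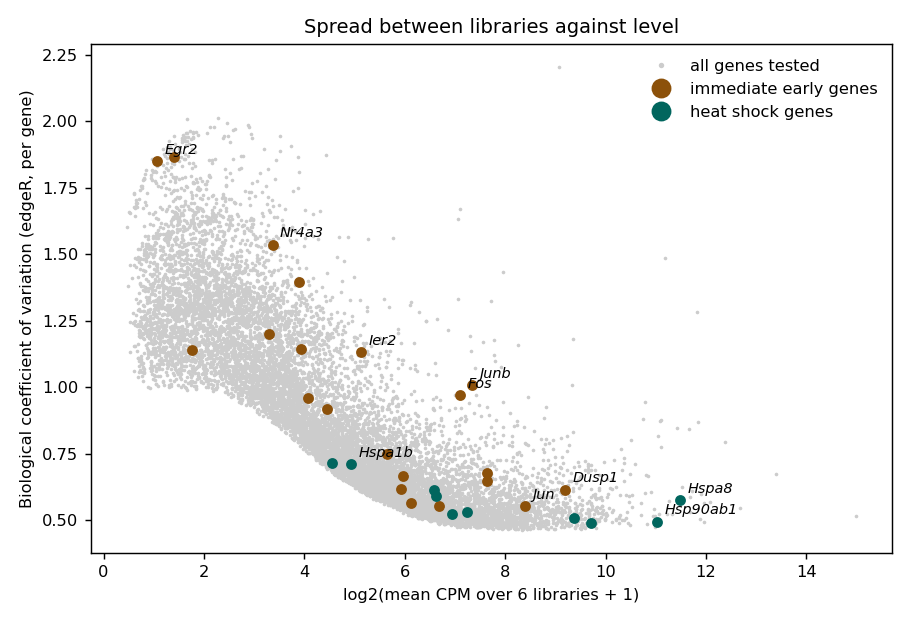
Biological coefficient of variation per gene from edgeR against log2 of the mean CPM over 6 libraries plus 1, for all genes tested in grey, immediate early genes in brown and heat shock genes in green. Fos and Junb lie at 0.971 and 1.01, and the heat shock genes lie between 0.489 and 0.717.

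HSF1 is known to bind the heat shock element, inverted repeats of GAA, as a trimer, and 6 of the 7 heat shock genes with a window held at least a pair of such repeats. The promoters of Hspa1a and Hspa1b are shown because these genes are near copies, and that of Hspe1 because it is shared with Hspd1. Capitals mark GAANNTTC and TTCNNGAA.
Hspa1a, chr17:34972107-34972406, minus strand: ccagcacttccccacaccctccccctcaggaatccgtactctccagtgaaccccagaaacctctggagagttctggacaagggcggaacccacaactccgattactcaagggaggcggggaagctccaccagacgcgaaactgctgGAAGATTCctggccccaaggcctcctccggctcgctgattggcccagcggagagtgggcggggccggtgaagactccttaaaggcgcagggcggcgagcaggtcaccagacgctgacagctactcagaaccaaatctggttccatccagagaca
Hspa1b, chr17:34959189-34959488, minus strand: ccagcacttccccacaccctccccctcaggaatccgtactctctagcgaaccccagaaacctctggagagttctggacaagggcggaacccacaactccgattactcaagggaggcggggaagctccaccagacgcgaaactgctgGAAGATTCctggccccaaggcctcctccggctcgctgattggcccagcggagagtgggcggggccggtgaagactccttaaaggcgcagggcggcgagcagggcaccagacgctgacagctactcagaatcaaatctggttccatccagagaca
Hspe1, chr1:55087898-55088197, plus strand: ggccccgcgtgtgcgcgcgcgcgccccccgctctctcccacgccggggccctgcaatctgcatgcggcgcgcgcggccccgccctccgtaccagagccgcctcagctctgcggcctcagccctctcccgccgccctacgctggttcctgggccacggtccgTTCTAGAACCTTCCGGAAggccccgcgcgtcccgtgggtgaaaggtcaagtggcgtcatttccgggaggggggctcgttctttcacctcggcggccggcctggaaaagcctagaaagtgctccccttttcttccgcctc

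The windows of Hspa1a and Hspa1b carried the same base at 296 of 300 positions. Each held GAANNTTC once. The Hspe1 window held an unbroken run of alternating repeats that contains the element of 3 units (GAANNTTC followed at once by NNGAA, read on either strand), and 285 of its 300 bases also lie in a window of Hspd1, which is transcribed from the other strand. The element of 3 units was present for Hsph1, Hspd1 and Hspe1, 3 of 7 heat shock genes with a window, against 0 of 19 immediate early genes and 0.662% of all genes. The shorter GAANNTTC was present for 6 of 7 heat shock genes, against 2 of 19 immediate early genes and 9.04% of all genes. Dnajb1 was the heat shock gene without it, and TTCNNGAA was present for 3 of 7 against 9.60% of all genes. These counts overlap, since the element of 3 units contains both shorter forms. The genes counted are not independent either. Hspe1 and Hspd1 hold the same run of repeats in their shared bases, and the windows of Hspa1a and Hspa1b are near copies. The shares over all genes are thus set beside fewer separate promoters than genes. Over the 8908 tested genes with a window, the shares were 0.528% for the element of 3 units, 6.97% for GAANNTTC and 8.4% for TTCNNGAA.

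The stress-induced HSP70 genes Hspa1a and Hspa1b stood at 10.8 to 46.7 CPM and did not pass the test. Hspa1a (chromosome 17, 34969190 to 34972156, minus strand) had 10.8, 27.1 and 22.7 CPM in its GFP+ libraries and 16.9, 35.1 and 22.2 CPM in its GFP- libraries. Hspa1b measured 17.1, 11.7 and 41.9 CPM across GFP+ and 18.3, 41.2 and 46.7 CPM across GFP- libraries. Of the 31-base words of Hspa1a transcripts 63.8% also lie in Hspa1b transcripts, so the split of reads between them is uncertain. Their sum was 27.9, 38.8 and 64.5 CPM across GFP+ and 35.2, 76.3 and 68.8 CPM across GFP- libraries, higher in GFP- cells in each pair. The log2 fold changes were −0.29 ± 0.77 and −0.59 ± 0.77 (SE; edgeR adjusted p = 0.998 for each). Hspa8, the HSP70 made in all cells, was at 1271, 3491 and 3309 CPM in the GFP+ fraction, while the GFP- fraction gave 1991, 1910.0 and 5264 CPM. It varied 4.14-fold between libraries, and GFP- replicate 3 was the highest. Per kilobase of the longest coding transcript, the mean level of Hspa8 was 1200.0 CPM against 7.57 for Hspa1a and 10.5 for Hspa1b. The annotated copy Gm15459 holds 68.9% of the words of Hspa8, so its level is uncertain as well. Hsph1, an HSP110 protein that assists HSP70, had 170.3, 66.5 and 86.8 CPM in its GFP+ libraries and 149.8, 122 and 132 CPM in its GFP- libraries. The GFP- libraries lay close together, while GFP+ replicates 2 and 3 lay below them and GFP+ replicate 1 above.

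The J proteins, partners that hand clients to HSP70, differed from each other in how steady they were. Dnaja1 measured 638, 839 and 1219 CPM across GFP+ and 848, 641 and 821 CPM across GFP- libraries, and its highest library exceeded its lowest by 1.91-fold. Dnajb1, which is induced by HSF1, was at 81.0, 33.3 and 191 CPM in the GFP+ fraction, while the GFP- fraction gave 106, 94.7 and 59.8 CPM. Like Fos, Dnajb1 was lowest in GFP+ replicate 2 and highest in GFP+ replicate 3, and its log2 fold change of 0.23 ± 0.66 (SE; edgeR adjusted p = 0.998) spanned the values −0.82 to 0.71 when libraries or replicates were left out. For Dnaja1, 29.5% of 31-base words also lie in other annotated genes.

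Of the HSP90 genes, the constitutive Hsp90ab1 had the smallest range over libraries of the 31 members, 1.83-fold, and the inducible Hsp90aa1 was lowest in GFP+ replicate 2. Hsp90ab1 had 1412, 2434 and 2586 CPM in its GFP+ libraries and 1854, 2382 and 1847 CPM in its GFP- libraries, with a log2 fold change of 0.08 ± 0.51 (SE; edgeR adjusted p = 0.998). Hsp90aa1 measured 567, 374 and 759.9 CPM across GFP+ and 529, 708 and 1042 CPM across GFP- libraries, with a log2 fold change of −0.42 ± 0.51 (SE; edgeR adjusted p = 0.998). The ratio of Hsp90ab1 to Hsp90aa1 CPM was 6.51 in GFP+ replicate 2 and 1.77 to 3.51 in the other libraries. Of the 31-base words of Hsp90aa1 54.1% also lie in other annotated genes, mainly its copy Gm12346.

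The mitochondrial chaperonin genes gave the heat shock member with the largest fold change. Hspe1, which encodes the HSP10 lid of the chaperonin, on chromosome 1 at 55088132 to 55091307 (plus strand), was at 88.0, 169 and 149.8 CPM in the GFP+ fraction, while the GFP- fraction gave 96.3, 57.1 and 20.9 CPM. Its log2 fold change was 1.22 ± 0.64 (SE; unadjusted p = 0.0838, edgeR adjusted p = 0.998). Over the alternatives it ranged from 0.75 to 2.07, and GFP+ replicate 1 lay below GFP- replicate 1. Hspd1, which encodes the HSP60 barrel and lies beside Hspe1 on the other strand, had 149, 98.3 and 263 CPM in its GFP+ libraries and 102, 106 and 179.7 CPM in its GFP- libraries. Across this shared promoter, the ratio of Hspe1 to Hspd1 CPM ranged from 0.116 in GFP- replicate 3 to 1.72 in GFP+ replicate 2. Of the 31-base words, 59.1% of Hspe1 and 53.1% of Hspd1 also lie in other annotated genes, many of them copies such as Hspd1-ps3. The ratio is therefore uncertain.

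**Figure D5:**
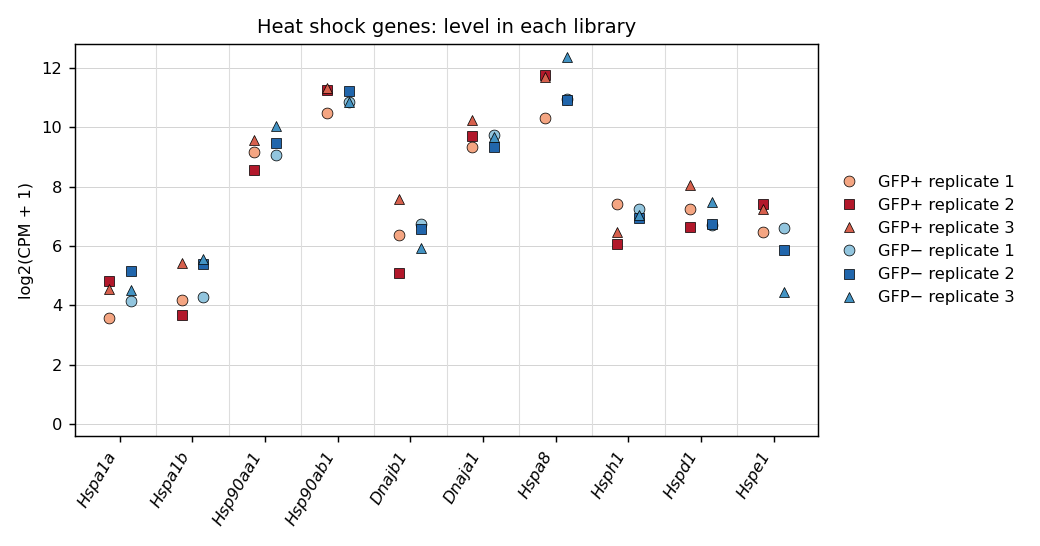
Level of each of the 10 heat shock genes as log2(CPM + 1) in each of the 6 libraries, drawn as for the immediate early genes. Hspa1a and Hspa1b lie lowest, at 10.8 to 46.7 CPM, Hspa8 and Hsp90ab1 lie highest, and the groups overlap for every gene.

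Further immediate early genes, a list of 41 of which 37 were in the table and 31 tested, also gave 0 calls by edgeR and by DESeq2, with 1 and 2 genes at an unadjusted p under 0.05. Of the 31, 20 had a log2 fold change above 0 and 11 below, with a median of 0.30. A replicate 2 library was the lowest for 20, against 27.4% of all genes, and the highest for 5, against 34% of all genes. GFP+ replicate 2 lay at least 4-fold below the median of the other 5 libraries for 5 of 31, against 10.4% of all genes. GFP+ replicate 3 was the highest library for 16 of the 31, against 23.1% of all genes. The median differences within pairs 1, 2 and 3 were 0.28, −0.81 and 1.26 on the log2(CPM + 1) scale, so the direction differed between pairs. The genes of this list with the highest mean CPM were Tnfaip3, Mcl1 and Myc. Tnfaip3, which encodes the NF-κB inhibitor A20, measured 502, 120.4 and 848 CPM across GFP+ and 225, 213 and 259.7 CPM across GFP- libraries, once more lowest in GFP+ replicate 2 and highest in GFP+ replicate 3. Myc, a regulator of growth, stood at 199 to 341 CPM and Mcl1, a survival protein, at 196 to 533 CPM. Klf2, a regulator of lymphocyte migration, was the 1 gene of this list with an unadjusted edgeR p under 0.05, at 35.2, 15.3 and 48.2 CPM in GFP+ against 10.6, 5.22 and 9.30 CPM in GFP- replicates (log2 fold change 1.97 ± 0.84, SE; edgeR adjusted p = 0.998). The groups did not overlap for Klf2 and for Cd69, an early activation antigen at 38.4 ± 22.4 against 14.2 ± 6.00 CPM (SD, n = 3), both higher in GFP+ cells. They did not overlap either for Dusp6 and Nfkbid, both lower in GFP+ cells, and these 4 genes were named after their values were seen. Such genes were 2 of 31 in each direction, against 3.17% of all genes higher and 6.01% lower. Dusp6, a phosphatase of ERK, stood at 5.46 ± 4.69 against 30.2 ± 13.2 CPM (SD, n = 3). Nfkbid, an atypical NF-κB inhibitor, stood at 7.20 ± 4.48 against 16.1 ± 6.24 CPM (SD, n = 3).

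Kinases and factors upstream of these genes, or partners of AP-1, had a median biological coefficient of variation of 0.563. Of 25 tested, 13 had a log2 fold change above 0 and 12 below, with a median of 0.07, and 0 were called by edgeR or DESeq2, with 0 and 1 at an unadjusted p under 0.05. Srf, the serum response factor, was at 35.1, 53.1 and 57.4 CPM in the GFP+ fraction, while the GFP- fraction gave 77.1, 54.9 and 35.0 CPM. Its partner Elk4 had 411, 435 and 295 CPM in its GFP+ libraries and 338, 393 and 594 CPM in its GFP- libraries. Neither was lowest in GFP+ replicate 2, and that library was the lowest for 5 of the 25. The highest mean CPM were those of Rps6ka3, a kinase below ERK, at 517 to 2286 CPM, Atf7, at 366 to 576 CPM, and Elk4.

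HSF1 and further chaperones, 33 tested, had 20 above 0 and 13 below with a median of 0.09, and 0 were called by edgeR or DESeq2, with 1 and 2 at an unadjusted p under 0.05. Hsf1 itself measured 81.9, 22.6 and 129 CPM across GFP+ and 65.8, 137 and 31.6 CPM across GFP- libraries, with a log2 fold change of −0.01 ± 0.75 (SE; edgeR adjusted p = 0.999). Like Dnajb1, Hsf1 was lowest in GFP+ replicate 2. The highest mean CPM were those of Hspa4, an HSP110 relative at 233 to 790.1 CPM, Stip1, which links HSP70 to HSP90, at 93.3 to 309 CPM, and St13, at 72.5 to 219 CPM. Hspa2, an HSP70 known mainly from testis, was the 1 gene with an unadjusted edgeR p under 0.05, at 0.551 ± 0.955 CPM over GFP+ and 14.1 ± 10.1 CPM over GFP- libraries (SD, n = 3; edgeR adjusted p = 0.998), and was named after its values were seen.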

How the data were processed

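RNA of GFP+ and GFP- ILCPs was measured by paired-end sequencing (75 bases per read) after isothermal amplification and depletion of ribosomal RNA, per the labels' protocols. The authors deposited estimated counts for each gene and library without normalization. For the tools, the submitters' processing notes list kallisto, Bowtie2, DESeq2 and Trimmomatic and the build GRCm38, while roles and versions are not given in the sources used here. Genes outside the 16383 in the table were not analysed here. The authors' deposited table also gives a mean signal per gene, log2 fold changes, their standard errors, the Wald statistic of each gene (a score), and its p-value. The deposited mean equals the mean of rounded estimated counts divided by a constant for each library, and 0 genes departed from that by over 1e-06. Amplification before sequencing can add to the spread between libraries. Sample groups and numbers came from the labels. The labels' descriptions also give both libraries of a pair a common prefix whose meaning they do not state, so what it marks and the replicate number cannot be told apart.

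After rounding, these whole numbers went into edgeR 4.0.16 (robust quasi-likelihood fit, filterByExpr, trimmed mean of M values; R 4.3.3). The model held group alone, and p-values were adjusted by Benjamini-Hochberg at 0.05. p-values measure the spread between 3 pools per group. Alternatives were DESeq2 1.42.0, limma 3.58.1 (voom with sample weights), the replicate number as a block, other scalings and filters, and each replicate and library left out. The test was tried on simulated counts. The labels say that each replicate number stands for 1 pool of mice, which pairs its GFP+ and GFP- library. The correlation of their deviations from the group means was 0.139, −0.13 and −0.154 for replicates 1, 2 and 3.

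The members and gene lists were chosen with earlier results of these data known. All 31 members could be named, and of other lists the 3 genes of highest mean CPM, any called gene, and Hsf1, Srf and Elk4. Positions, transcript lengths and 31-base words shared between genes came from GENCODE vM21 on GRCm38, and promoter windows from RefSeq on GRCm38.p6, with motifs chosen after the windows were seen. How the authors' counting split shared words is not given in the sources used here. Plots used matplotlib 3.10.9 (Python 3.11.15).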

Additional observations from a re-analysis of the deposited data

How the results depend on the processing

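The count of genes called by edgeR was 0 in the fit given and under every alternative to it that used edgeR or limma, and it was 60 by DESeq2, 15 higher and 45 lower. The count of members called was 0 in every alternative, with a smallest adjusted p of 0.43 for any member. The replicate block changed no call, as edgeR called 0 of 12199 genes with it, and 209 of the 12199 had an unadjusted p under 0.05. With the block the median of the immediate early genes was 0.15 and that of the heat shock genes −0.13.

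Of 491 log2 fold changes of members under alternatives 71 changed sign, and 12 of 31 members kept their sign throughout (Fosl2, Jund, Egr1, Atf3, Dusp2, Nr4a2, Btg2, Nfkbia, Hspa1b, Hsp90aa1, Hsph1 and Hspe1). The cause of each change was not tested. The median of the immediate early genes was −0.20 with sample weights in limma-voom and ranged from −0.12 to 1.11 when libraries or replicates were left out. That of the heat shock genes ranged from −0.27 to 0.28 in the same way. With the replicate block the log2 fold changes that changed sign were Fos −0.54, Jun −0.0465, Egr2 −0.96, Nr4a3 −3.77, Klf4 −0.0756, Klf6 0.28 and Dnajb1 −0.10. With sample weights in limma-voom they were Fos −2.11, Jun −0.20, Junb −0.57, Egr2 −0.93, Ier2 −0.73, Ier5 −0.19, Nr4a1 −0.18, Nr4a3 −1.20, Klf4 −0.33, Klf6 0.57, Hsp90ab1 −0.0535, Dnajb1 −0.50 and Hspa8 0.0154. DESeq2 gave Fosb 0.0029 and Klf6 0.0718, edgeR with DESeq2's size factors gave Fosb 0.0033 and Klf6 0.0704, and edgeR without a filter gave Klf6 0.0126. With library totals as the only scaling, under which the median of all genes was −0.19 in place of −0.03, edgeR gave Jun −0.0237, Dusp1 −0.0106, Hsp90ab1 −0.20, Dnajb1 −0.0502 and Dnaja1 −0.0296.

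With libraries or replicates left out, the log2 fold changes that changed sign ranged from −0.34 to 1.11 for Fos, −1.29 to 0.44 for Fosb, −0.45 to 0.65 for Jun, −0.75 to 3.67 for Junb, −6.41 to 2.58 for Egr2, −0.30 to 2.28 for Ier3 and −0.44 to 1.60 for Ier5. They ranged from −0.36 to 0.73 for Dusp1, −0.89 to 2.96 for Nr4a1, −6.13 to 2.71 for Nr4a3, −0.27 to 1.21 for Klf4 and −0.52 to 1.14 for Klf6. Among heat shock genes they ranged from −0.57 to 0.10 for Hspa1a, −0.14 to 0.36 for Hsp90ab1, −0.82 to 0.71 for Dnajb1, −0.0611 to 0.54 for Dnaja1, −0.67 to 0.46 for Hspa8 and −0.0668 to 0.70 for Hspd1. Among members that kept their sign they ranged from 0.35 to 2.67 for Fosl2, 0.07 to 0.82 for Egr1, −8.11 to −0.69 for Atf3, −2.21 to −0.0883 for Dusp2, −7.82 to −1.47 for Nr4a2, 0.11 to 1.18 for Nfkbia, −1.30 to −0.15 for Hspa1b, −0.69 to −0.13 for Hsp90aa1 and −0.76 to −0.0733 for Hsph1. The common biological coefficient of variation was 0.922.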

Other observations

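Chaperones of other compartments were tested in the same fit. The 8 subunits of the cytosolic chaperonin TRiC, which folds actin and tubulin, had 7 log2 fold changes above 0 and 1 below, with a median of 0.48, and 0 were called by edgeR or DESeq2, with 0 at an unadjusted p under 0.05 by either. Tcp1 had a mean of 276 ± 66.8 CPM over GFP+ libraries and of 166 ± 23.1 CPM over GFP- libraries (SD, n = 3), and its groups did not overlap. It was the 1 such gene of the 8, against 3.17% of all genes wholly higher and 6.01% wholly lower in GFP+ cells. Cct4 stood at 230.2 ± 109.7 against 146 ± 44.2 CPM and Cct2 at 200.2 ± 103 against 178 ± 31.4 CPM (SD, n = 3). GFP+ replicate 3, the library with high ribosomal protein RNA, was the highest for 6 of the 8 subunits, against 23.1% of all genes. The median differences within pairs 1, 2 and 3 were −0.08, 0.04 and 1.17 on the log2(CPM + 1) scale, so the direction of this list rested on pair 3.

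Chaperones and stress genes of the endoplasmic reticulum, 18 tested, had 12 log2 fold changes above 0 and 6 below, with a median of 0.14, and 0 were called by edgeR or DESeq2, with 0 at an unadjusted p under 0.05 by either. Pdia3, a disulfide isomerase, measured 267, 1695 and 462 CPM across GFP+ replicates 1, 2 and 3, while the GFP- libraries gave 337, 628 and 1604 CPM. It was highest in GFP+ replicate 2, the library in which Fos was lowest. Hsp90b1, the HSP90 of this compartment, stood at 421 to 1119 CPM, and the lectin chaperone Canx at 321 to 514 CPM. Ddit3, which encodes the stress factor CHOP, measured 9.30, 0.496 and 2.49 CPM across GFP+ and 11.0, 22.6 and 18.5 CPM across GFP- libraries. Its groups did not overlap, and it was named after its values were seen. Of the 18 genes, 1 lay wholly above and 1, Ddit3, wholly below in GFP+ cells, against 3.17% and 6.01% of all genes.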
